A study of Mus musculus with 35 samples.

Results

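The IL-6 family of cytokines, its receptors and the signal transducer STAT3 were followed in RNA from mouse brain hemispheres through 10 genes of 18193 named on the array, or 26 probe sets of 45037 tested. A probe set is a group of short probes for 1 transcript, and all 26 that the annotation gives to these genes alone were used. The ligand genes were Il6 with 1 probe set, Lif with 2, Osm with 1 and Clcf1 with 3. The receptor genes were Il6ra with 2 probe sets, Lifr with 3, Osmr with 3 and Il6st with 4. Stat3 had 4 probe sets and Socs3 had 3. The genes were chosen by name, with no filter on level; 23 of the 26 probe sets in the surgery arrays and 19 of 26 in the naive arrays had a mean at or above the 30th percentile of all probe sets.

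Male mice on the FVB background, either beta2 adrenergic receptor knockout or wild type, were studied after middle cerebral artery occlusion (MCAO, a model of focal stroke), after sham surgery, or without surgery (naive). The ischemic hemisphere after MCAO or the hemisphere on the operated side after sham surgery was taken 24 h later. There were 7 knockout MCAO, 7 wild type MCAO, 3 knockout sham and 3 wild type sham arrays, and, normalized separately by the authors, 7 knockout naive and 8 wild type naive arrays. Naive and surgery values were therefore never set against each other. Every value is a deposited log2 signal after robust multi-array averaging (RMA), so a difference of 1 is a doubling of signal. Levels of different probe sets are not comparable. The labels call the mice receptor knockouts and do not say in which cells the receptor was lost, and they do not say whether each array is a separate animal; p-values then measure only the spread between arrays, which may be technical. The receptor signals through cyclic AMP, and the genotype comparisons below ask whether its loss went with a different level of these genes before or after ischemia.

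IL-6 family cytokines act through a shared signalling subunit, gp130, the product of Il6st. IL-6 first binds the IL-6 receptor alpha chain, leukemia inhibitory factor (Lif) uses the Lifr chain together with gp130, and oncostatin M (Osm) uses the Osmr chain together with gp130. Cardiotrophin-like cytokine factor 1 (Clcf1) signals through the ciliary neurotrophic factor receptor complex, which also holds Lifr and gp130. The receptors activate JAK kinases that phosphorylate STAT3, a transcription factor, and STAT3 induces Socs3, whose product inhibits the receptor and its kinases. In the brain these cytokines are known for driving astrocyte reactivity after injury and for acting on neurons and microglia.

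Promoter sequences are shown for Il6, Lif and Socs3, because these are the 3 genes whose window of 250 bases before a RefSeq transcript start (build GRCm38.p6) held any of 4 searched motifs. RefSeq windows were at hand for 8 of the 10 genes, as 9 windows, without Osm and Clcf1. Both strands were searched for STAT (TTCNNNGAA), NF-kappaB (GGGNN followed directly by TTTCC), AP-1 (TGANTCA) and C/EBP (TTGNGCAA). Of 32851 promoter windows of that length, 7.02% held the STAT letters, 1.41% the NF-kappaB letters, 6.75% the AP-1 letters and 2.61% the C/EBP letters. The sequences read 5′ to 3′ towards the start, in lower case, with the matches in capitals. A match describes these letters and does not show a bound site.
Il6, chr5:30012864-30013113, plus strand: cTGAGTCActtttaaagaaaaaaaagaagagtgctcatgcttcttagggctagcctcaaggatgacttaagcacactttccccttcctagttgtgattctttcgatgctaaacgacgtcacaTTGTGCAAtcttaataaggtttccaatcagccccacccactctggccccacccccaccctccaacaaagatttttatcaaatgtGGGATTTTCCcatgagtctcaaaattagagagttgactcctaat
Lif, chr11:4257318-4257567, plus strand: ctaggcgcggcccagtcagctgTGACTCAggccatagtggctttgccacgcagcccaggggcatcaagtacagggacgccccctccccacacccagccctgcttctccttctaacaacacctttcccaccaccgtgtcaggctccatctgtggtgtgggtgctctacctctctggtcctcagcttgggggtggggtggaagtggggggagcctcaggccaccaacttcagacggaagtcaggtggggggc
Socs3, chr11:117969367-117969616, minus strand: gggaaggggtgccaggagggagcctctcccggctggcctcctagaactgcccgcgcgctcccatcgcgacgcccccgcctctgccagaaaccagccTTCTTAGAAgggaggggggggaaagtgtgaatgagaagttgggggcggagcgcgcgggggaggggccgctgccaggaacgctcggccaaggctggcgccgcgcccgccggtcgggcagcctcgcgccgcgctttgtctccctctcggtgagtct
In the Il6 window, TGAGTCA lies 249 to 243 bases before the start, TTGTGCAA lies 128 to 121 bases before it, and GGGATTTTCC lies 44 to 35 bases before it. The Lif window holds TGACTCA at 228 to 222 bases before the start. The Socs3 window holds the STAT letters TTCTTAGAA at 154 to 146 bases before the start. Il6, Lif and Socs3 all rose after MCAO in both genotypes, as given next. So did Stat3, Osmr and Il6st, whose windows held none of these letters.

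After MCAO 8 of the 10 genes had a probe set that rose in knockout mice and 7 had one in wild type mice, while 11 of the 26 probe sets were called in neither genotype. In knockout mice 15 of 26 probe sets, from 8 of the 10 genes, were higher after MCAO than after sham surgery and none was lower (limma, Benjamini-Hochberg adjusted p under 0.05 over all 45037 probe sets). Over all probe sets 18.7% were called in that comparison, 10.8% as higher and 7.94% as lower. In wild type mice 13 of 26 probe sets, from 7 genes, were higher and none was lower, where 10.7% of all probe sets were called, 5.11% as higher and 5.59% as lower. All 13 probe sets called in wild type mice were also called in knockout mice; the 2 further calls in knockout mice were 1 probe set each of Il6st and Lifr. In 14 probe sets of knockout mice every MCAO array lay above every sham array (11.2% of all probe sets), and in 18 of wild type mice (7.97% of all probe sets). The median log2 difference of the 26 probe sets was 0.98 in knockout mice and 0.62 in wild type mice, while the median over all probe sets was -0.06 in knockout mice and 0.03 in wild type mice. The tissue is a mixture of cells, so more cells of a type and more RNA per cell cannot be told apart in any of these differences.

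Il6, the gene of interleukin 6, rose after MCAO in both genotypes. In knockout MCAO arrays its signal ran from 4.79 to 9.25 with a median of 8.81, against 4.15, 4.23 and 4.28 in knockout sham arrays. In wild type MCAO arrays it ran from 7.13 to 8.91 with a median of 8.60, against 3.67, 3.42 and 3.79 in wild type sham arrays. Every MCAO array lay above every sham array of its genotype, but the knockout MCAO arrays fell into separate levels: arrays 5 and 2 were at 4.79 and 5.08, array 7 was at 6.39, and the other 4 lay between 8.81 and 9.25. The log2 difference was 3.25 in knockout mice (SE 0.78, limma adjusted p = 0.00689) and 4.80 in wild type mice (SE 0.78, limma adjusted p = 0.000519). The Il6 sham values lie near the dim end of the arrays, whose 5th percentile was 3.60 to 3.67 in knockout sham and 3.50 to 3.53 in wild type sham arrays, so no fold is given and the size of both differences is uncertain. The SD between MCAO arrays was 1.99 in knockout mice (n = 7) and 0.63 in wild type mice (n = 7). Without knockout MCAO arrays 2 and 5 the knockout difference was 4.27 (SE 0.48, limma adjusted p = 1.14e-05). These were the 2 lowest of their group in Il6 and were left out after the data were seen. The larger difference and smaller SE follow from that choice, and nothing is concluded from them.

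Knockout MCAO arrays 2 and 5 correlated with each other over all probe sets at r = 0.997, as did arrays 1 and 6. Arrays 2 and 5 had the highest difference between the 3 prime and 5 prime control probe sets of Gapdh, a measure of RNA integrity and labelling, at 0.38 and 1.18, while the other 5 lay between -0.25 and 0.00. Array 7 had the lowest Gapdh value, -0.25. The same difference for actin was highest in knockout MCAO arrays 1 and 6, at 1.59 and 1.75, while arrays 2 and 5 were at 1.15 and 0.99 and the other 3 between 0.43 and 0.68. The mean level of 9 neutrophil markers was 5.59, 5.50 and 5.36 in knockout MCAO arrays 2, 5 and 7, and between 6.07 and 6.22 in the other 4. It was between 6.16 and 7.09 in wild type MCAO arrays, between 5.53 and 5.76 in knockout sham arrays and between 5.35 and 5.41 in wild type sham arrays. Arrays 2, 5 and 7 also lay apart from the other 4 knockout MCAO arrays in further marker means. These were neurons (12.15 to 12.22 against 11.99 to 12.06) and oligodendrocytes (10.92 to 10.99 against 11.18 to 11.48). So were endothelium and pericytes (8.20 to 8.52 against 8.85 to 9.31) and monocytes and macrophages (5.91 to 6.30 against 6.38 to 7.06). Astrocyte, microglia, lymphocyte, meningeal and choroid plexus means overlapped. The part of RNA integrity and of cell content in the Il6 values was not tested.

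Lif, which codes for leukemia inhibitory factor, rose on 1 of its 2 probe sets. On 1421207_at knockout MCAO arrays ran from 5.82 to 8.51 with a median of 8.18, against 5.29, 5.90 and 5.75 in knockout sham arrays. In wild type MCAO arrays it ran from 7.22 to 7.80 with a median of 7.55, against 5.21, 5.23 and 5.03 in wild type sham arrays. The wild type groups were apart, while knockout MCAO array 7 (5.82) lay among the knockout sham arrays and arrays 2 and 5 (6.99 and 7.04) lay below the other 4. Lif thus differed by 1.94 on the log2 scale in knockout mice (SE 0.39, limma adjusted p = 0.00172) and 2.40 in wild type mice (SE 0.39, limma adjusted p = 0.000468). The dimmer probe set 1450160_at was not called (0.02 in knockout and 0.40 in wild type mice).

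Clcf1, the gene of cardiotrophin-like cytokine factor 1, rose on 2 of its 3 probe sets. On 1437271_at, its brightest, knockout MCAO arrays ran from 6.63 to 8.17 with a median of 7.92, against 5.85, 5.60 and 5.48 in knockout sham arrays. Those of wild type MCAO mice ran from 6.61 to 7.17 with a median of 6.98, against 5.68, 5.42 and 5.35 in wild type sham arrays. Neither genotype's MCAO and sham arrays overlapped. The rise was 3.94-fold in knockout mice (log2 difference 1.98, SE 0.25, limma adjusted p = 2.39e-05) and 2.83-fold in wild type mice (SE 0.25 on the log2 scale, limma adjusted p = 0.000617). On 1437270_a_at it was 2.89 in knockout mice (SE 0.39) and 2.48 in wild type mice (SE 0.39), both called. The remaining probe set, 1450262_at, was at 0.39 in knockout and 0.65 in wild type mice, and neither was called.

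Osm, the oncostatin M gene, was not called in either genotype. Knockout MCAO arrays ran from 6.03 to 7.00 with a median of 6.65, against 6.65, 6.83 and 6.83 in knockout sham arrays. Arrays of wild type MCAO mice ran from 6.47 to 7.28 with a median of 6.62, against 6.25, 6.44 and 6.11 in wild type sham arrays. The knockout groups overlapped and the wild type groups did not. Osm differed by -0.22 on the log2 scale in knockout mice (SE 0.19, limma adjusted p = 0.427) and 0.51 in wild type mice (SE 0.19, limma adjusted p = 0.0867). Without knockout MCAO arrays 2 and 5, which changes only the shared estimate of spread for wild type, the wild type adjusted p was 0.0446.

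**Figure D1:**
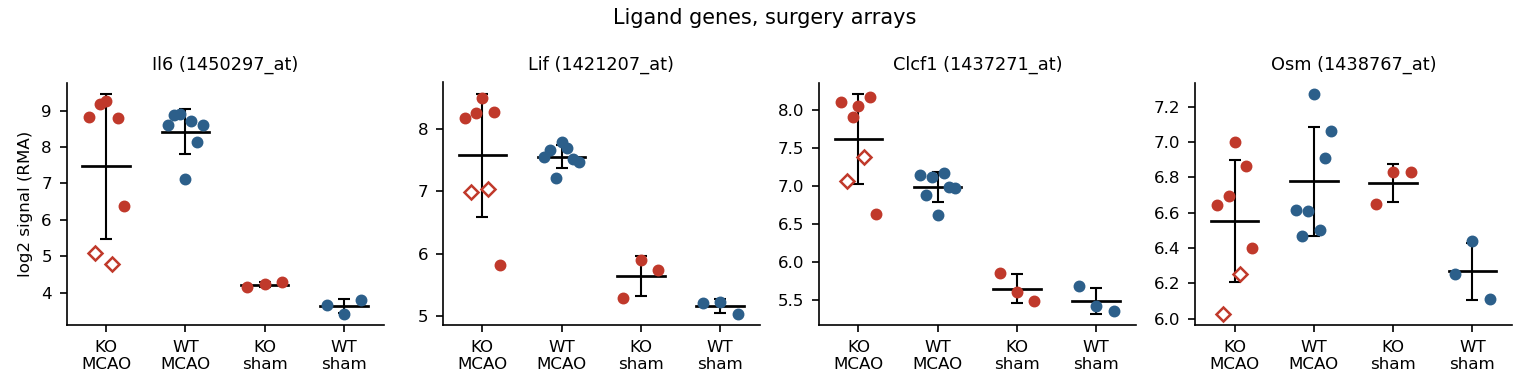
Log2 RMA signal (y axis) of 4 ligand probe sets on each surgery array (points) in 4 groups (x axis), with the mean as a line and the SD as a bar (n = 7 and 7 MCAO, 3 and 3 sham); open diamonds are knockout MCAO arrays 2 and 5. The Il6 values of knockout MCAO arrays spread from 4.79 to 9.25, all above the sham arrays, and the scale of each panel is its own.

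Osmr, the oncostatin M receptor chain, had the largest rise among the receptor genes. On 1418674_at knockout MCAO arrays ran from 9.11 to 10.16 with a median of 9.50, against 5.83, 6.19 and 6.14 in knockout sham arrays. Wild type MCAO arrays ran from 8.65 to 9.70 with a median of 9.52, against 6.10, 7.08 and 5.93 in wild type sham arrays. MCAO and sham arrays were far apart in both genotypes, and knockout MCAO arrays 2 and 5 were the lowest of their group (9.11 and 9.23), with the next at 9.38. Osmr differed by 3.54 on the log2 scale in knockout mice (SE 0.25, 11.7-fold, limma adjusted p = 2.13e-08) and 3.01 in wild type mice (SE 0.25, 8.05-fold, limma adjusted p = 2.80e-07). A further probe set, 1418675_at, gave 2.30 in knockout mice (SE 0.21) and 2.06 in wild type mice (SE 0.21), both called, and the dim probe set 1459217_at gave -0.08 and 0.25, neither called.

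Il6st, the gp130 gene, rose less, and not on every probe set. On 1452843_at knockout MCAO arrays ran from 9.12 to 10.14 with a median of 9.58, against 8.82, 8.67 and 8.76 in knockout sham arrays. In wild type mice the MCAO arrays ran from 9.17 to 9.59 with a median of 9.46, against 8.90, 8.92 and 8.72 in wild type sham arrays. The groups did not overlap in either genotype. Il6st differed by 0.81 on the log2 scale in knockout mice (SE 0.17, limma adjusted p = 0.00298) and 0.58 in wild type mice (SE 0.17, limma adjusted p = 0.0341). The wild type call was lost in 6 of the 10 fits without 1 array, with adjusted p-values up to 0.144: those without wild type sham array 1, 2 or 3 and those without wild type MCAO array 5, 6 or 7.

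On 1437303_at Il6st was at 1.15 in knockout mice (SE 0.21, limma adjusted p = 0.000929) and at 0.50 in wild type mice (SE 0.21, limma adjusted p = 0.144). Knockout MCAO array 4 stood alone at 10.70 on that probe set, with the other 6 between 9.16 and 9.63, and the knockout difference without that array was 0.97. The 2 other probe sets, 1460295_s_at and 1421239_at, were called in neither genotype: 0.64 and -0.22 in knockout mice, 0.43 and 0.37 in wild type mice. Without knockout MCAO arrays 2 and 5, 1460295_s_at was called in knockout mice at 0.96 (SE 0.14, limma adjusted p = 0.000168) and in wild type mice at 0.43 (SE 0.13, limma adjusted p = 0.042). These arrays were left out after the data were seen. The knockout difference was 0.77 without array 2 alone and 0.77 without array 5 alone, so its size rests on which arrays were left out. Probe sets with the suffix s_at can match several related transcripts.

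Lifr, the leukemia inhibitory factor receptor gene, changed in knockout mice on 1 probe set. On 1454984_at knockout MCAO arrays ran from 9.19 to 9.70 with a median of 9.42, against 9.07, 8.95 and 8.95 in knockout sham arrays. Wild type MCAO arrays ran from 9.16 to 9.68 with a median of 9.51, against 9.53, 9.42 and 9.49 in wild type sham arrays. The knockout groups did not overlap and the wild type sham arrays lay inside the wild type MCAO range. The log2 difference was 0.49 in knockout mice (SE 0.11, limma adjusted p = 0.00495) and -0.01 in wild type mice (SE 0.11, limma adjusted p = 0.982). The MCAO levels were 9.48 ± 0.18 in knockout and 9.48 ± 0.17 in wild type mice (SD, n = 7 each). The sham levels were 8.99 ± 0.07 in knockout and 9.48 ± 0.06 in wild type mice (SD, n = 3 each), and their difference is tested below. Probe set 1450207_at was at -0.31 in knockout and 0.48 in wild type mice, and 1425107_a_at was at 0.02 and 0.17; none of these was called.

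Il6ra, the alpha chain that binds IL-6, was called in neither genotype. On 1422270_a_at knockout MCAO arrays ran from 6.14 to 6.53 with a median of 6.30, against 6.45, 6.40 and 6.66 in knockout sham arrays. The wild type MCAO values ran from 6.17 to 7.08 with a median of 6.45, against 6.21, 6.18 and 6.52 in wild type sham arrays. The groups overlapped in both genotypes. The log2 differences on 1422270_a_at were -0.19 in knockout and 0.27 in wild type mice, and on 1452416_at 0.16 in knockout and 0.49 in wild type mice. The wild type value of 1452416_at was 0.05 in the fit with the replicate number as a block and in the same arrays without that block. Without wild type MCAO array 2 it was 0.64 (SE 0.18, limma adjusted p = 0.0305).

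Stat3 rose on 3 of its 4 probe sets in both genotypes. On 1426587_a_at knockout MCAO arrays ran from 10.17 to 11.49 with a median of 11.05, against 9.20, 8.91 and 9.12 in knockout sham arrays. Wild type MCAO arrays ran from 10.56 to 11.15 with a median of 10.89, against 9.09, 9.54 and 9.07 in wild type sham arrays. Every MCAO array was above every sham array, and knockout MCAO arrays 5 and 2 (10.17 and 10.30) were the lowest of the 14 MCAO arrays. The rise of Stat3 was 1.79 on the log2 scale in knockout mice (SE 0.21, 3.46-fold, limma adjusted p = 1.14e-05) and 1.65 in wild type mice (SE 0.21, 3.14-fold, limma adjusted p = 4.83e-05). Probe set 1460700_at gave 1.66 in knockout and 1.59 in wild type mice, and 1459961_a_at gave 1.35 and 1.17, all called. Probe set 1424272_at, at -0.06 in knockout and 0.32 in wild type mice, was not called.

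Socs3, the feedback inhibitor, rose on all 3 probe sets in both genotypes. On 1416576_at knockout MCAO arrays ran from 9.01 to 10.22 with a median of 9.88, against 6.42, 6.88 and 7.10 in knockout sham arrays. Wild type MCAO arrays ran from 9.37 to 9.67 with a median of 9.57, against 7.00, 6.52 and 6.56 in wild type sham arrays. The groups were far apart, with knockout MCAO arrays 7, 2 and 5 (9.01, 9.18 and 9.27) below the other 11 MCAO arrays. The log2 difference was 2.84 in knockout mice (SE 0.21, 7.14-fold, limma adjusted p = 4.83e-08) and 2.84 in wild type mice (SE 0.21, 7.15-fold, limma adjusted p = 8.86e-08). The probe sets 1455899_x_at and 1456212_x_at gave 4.45 and 4.37 in knockout mice and 4.29 and 4.04 in wild type mice. Probe sets of the x type can bind other transcripts, so the size of these changes is uncertain.

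**Figure D2:**
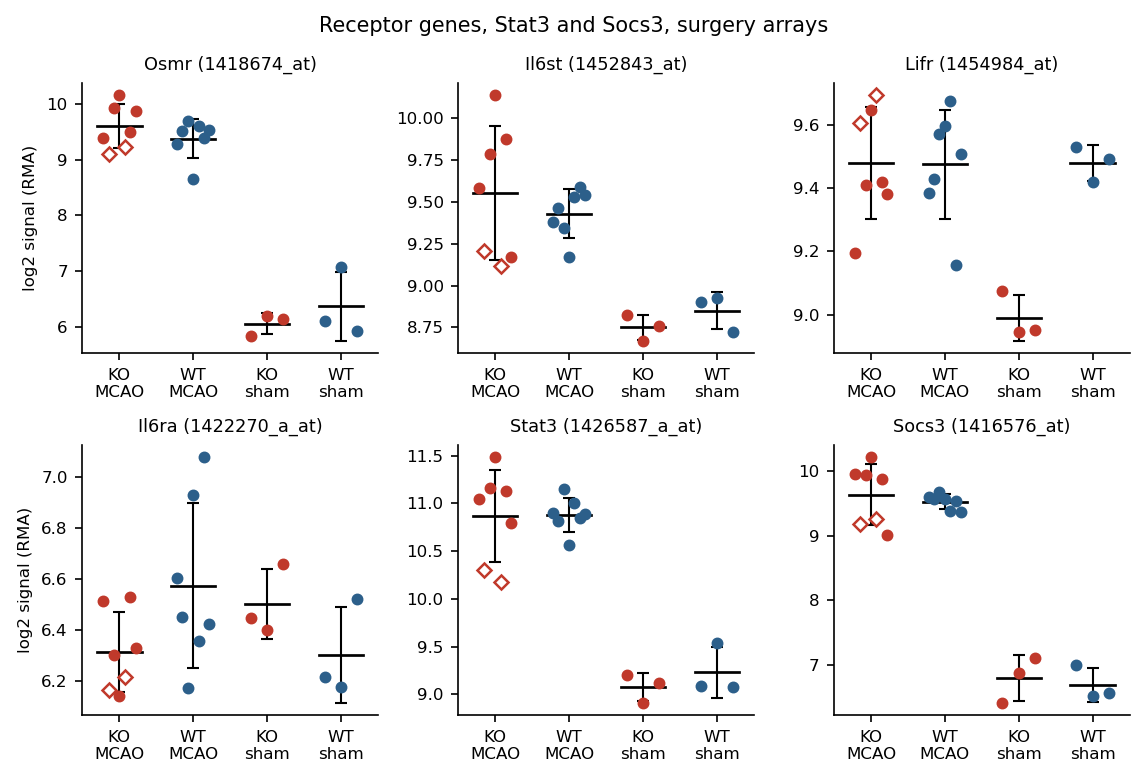
Log2 RMA signal (y axis) of the brightest probe set of each receptor gene, Stat3 and Socs3 on each surgery array (points) in 4 groups (x axis), with the mean as a line and the SD as a bar; open diamonds are knockout MCAO arrays 2 and 5. Osmr, Il6st, Stat3 and Socs3 are higher in every MCAO array than in every sham array, Il6ra overlaps, and the Lifr sham arrays differ between the genotypes.

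**Figure D3:**
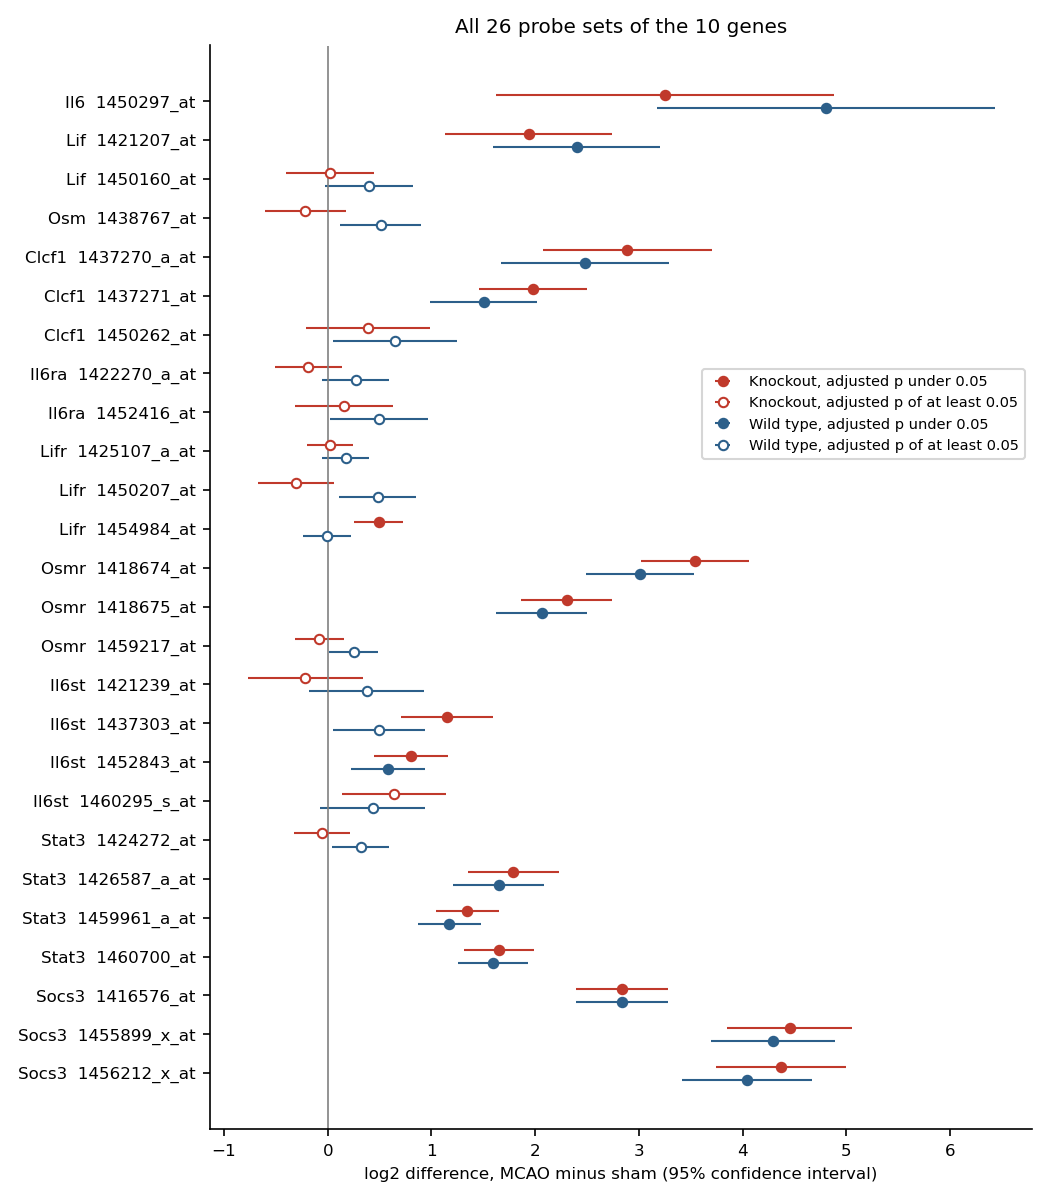
Log2 difference of MCAO minus sham (x axis) with its 95% confidence interval from limma for each of the 26 probe sets (rows) in knockout (red) and wild type (blue) mice; filled points have an adjusted p under 0.05. Filled points lie to the right of 0 in 15 knockout and 13 wild type cases, and none lies to the left.

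The rest of the pathway moved in part. Of 28 genes known to respond to STAT3, 19 were higher after MCAO in knockout and 22 in wild type mice, none was lower in either, and their median log2 differences were 1.25 and 1.45. Over all 18193 genes, each by its brightest probe set as in these lists, 14.9% were higher and 7.59% lower in knockout mice, and 7.41% were higher and 6.26% lower in wild type mice. This STAT3 list was compiled with earlier results of these data known, so its counts are not independent evidence of its direction. Cd44, the hyaluronan receptor gene, rose by 4.35 in knockout mice (SE 0.29) and by 3.72 in wild type mice (SE 0.29). Cebpd, a transcription factor gene of the acute-phase response, rose by 3.89 in knockout mice (SE 0.27) and by 3.33 in wild type mice (SE 0.27). Serpina3n, which codes for a protease inhibitor made by reactive astrocytes, rose by 2.31 in knockout mice (SE 0.21) and by 2.24 in wild type mice (SE 0.21). Vim, the vimentin gene, rose by 3.20 in knockout mice (SE 0.29) and by 2.59 in wild type mice (SE 0.29), and Lcn2, the gene of an iron-binding acute-phase protein, by 4.91 in knockout mice (SE 0.47) and by 5.61 in wild type mice (SE 0.47). Each gene is counted by its brightest probe set, and 1 of 3 other Cd44 probe sets was called lower in knockout mice.

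Among the other ligand genes with a probe set, Il11 alone was called, at 2.48 in knockout mice (SE 0.65, limma adjusted p = 0.0121) and 2.78 in wild type mice (SE 0.65, limma adjusted p = 0.00854). Interleukin 11 also signals through gp130. Ctf1, Ebi3 and Il31 lay between -0.03 and 0.16 in both genotypes, and none of the 3 other receptor genes (Cntfr, Il27ra and Il31ra) was called. Of 9 JAK kinase and other STAT genes, 3 were higher in knockout mice (Stat6 at 0.61, Jak1 at 0.51 and Jak2 at 0.44) and 2 in wild type mice (Jak3 at 0.59 and Stat5a at 0.43). With 14.9% and 7.41% of all genes called higher, a count this small in a list this short is read as a description only.

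Of 12 genes of other SOCS proteins and inhibitors, 4 were higher in knockout mice: Socs4 at 0.83, Socs6 at 0.58, Ptpn2 at 0.52 and Ptpn11 at 0.49. In wild type mice 1 was higher, the phosphatase gene Ptpn6 at 0.40, and 2 were lower, Socs7 at -0.51 and Socs5 at -0.37. The change differed between genotypes for Socs4 by 0.91 (SE 0.23, limma adjusted p = 0.0276) and for Socs7 by 0.68 (SE 0.15, limma adjusted p = 0.0204), each larger in knockout mice, where 8.03% of all genes passed that test. Nothing particular to the SOCS genes is read from these counts. These genes are uncertain: of 3 other Socs7 probe sets 2 were called with the opposite sign in knockout mice, and of 3 other Socs4 probe sets 2 had the opposite sign there, neither called.

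Markers of several cell types differed after MCAO too. All 8 neuron markers were above the array median in every surgery array; 1 of them was lower after MCAO in knockout and 2 in wild type mice. Of 7 astrocyte markers, 1 was higher in each genotype and 1 was lower in wild type mice. Of 7 microglia markers, 5 were lower after MCAO in each genotype, P2ry12 by -1.62 in knockout and -2.71 in wild type mice. The mean of these 7 ran from 7.17 to 7.72 in knockout MCAO and from 6.88 to 7.38 in wild type MCAO arrays, against 8.09 to 8.21 in knockout sham and 8.26 to 8.47 in wild type sham arrays. Of 9 neutrophil markers, 2 were higher in each genotype and 2 were lower in knockout mice: S100a8 was at 2.10 in knockout and 3.76 in wild type mice, and S100a9 at 1.77 and 3.61. The lower ones in knockout mice were Camp at -0.46 and Ltf at -0.42. Of 7 monocyte and macrophage markers, 4 were higher in knockout and 2 in wild type mice, among them Cd163 at 0.59 in knockout and 0.60 in wild type mice. Oligodendrocyte markers were higher in 2 of 5 cases in knockout and 3 of 5 in wild type mice, and meningeal and fibroblast markers in 3 of 8 in knockout and 1 of 8 in wild type mice. Of 7 lymphocyte markers 2 were lower in knockout mice and none was called in wild type mice, and no choroid plexus or erythrocyte marker was called in either. Endothelial and pericyte markers were higher in 4 of 8 cases in knockout and in 2 of 8 in wild type mice, Pecam1 by 1.31 in knockout and by 1.23 in wild type mice. Several of these counts are near the shares over all genes given above. The part of these cells in the family's rise was not tested.

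Whether the response to MCAO differed between genotypes was tested by the interaction, the change in knockout mice minus the change in wild type mice. None of the 26 probe sets passed it in limma (7.41% of all probe sets did), and 5 had an unadjusted p under 0.05. The closest was Lifr, with 1450207_at at -0.79 (SE 0.25, limma adjusted p = 0.0555) and 1454984_at at 0.50 (SE 0.16, limma adjusted p = 0.0578), probe sets of 1 gene with opposite signs. Osm followed at -0.73 (SE 0.27, limma adjusted p = 0.0854). For Il6 the interaction was -1.55 with a 95% confidence interval from -3.85 to 0.76 (adjusted p = 0.358), the widest of the 26. For Stat3 1426587_a_at the interval ran from -0.48 to 0.76, for Socs3 1416576_at from -0.63 to 0.62 and for Osmr 1418674_at from -0.20 to 1.27.

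The Lifr probe sets passed the interaction test in some fits. Probe set 1454984_at passed without wild type MCAO array 5 (0.53, limma adjusted p = 0.044) and without knockout MCAO array 1 (0.54, limma adjusted p = 0.0283). Probe set 1450207_at passed without knockout sham array 1, without wild type MCAO array 3, 4 or 5 and without knockout MCAO array 1, with values between -0.92 and -0.68. With all arrays, 1454984_at also passed with array weights (0.45, limma adjusted p = 0.0208) and median centring (0.58, limma adjusted p = 0.0473). After repeated quantile normalization it was 0.23 (limma adjusted p = 0.402). Over all 45037 probe sets 6638 passed with array weights, 3053 with median centring and 628 after repeated quantile normalization, against 3336 in the reported fit. Without knockout MCAO array 1 the count was 5362, and without knockout sham array 1 it was 3265. Without wild type MCAO array 3, 4 or 5 it was 4305, 3115 or 3928. Nothing particular to Lifr is read from these passes.

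Compared directly after MCAO, knockout and wild type mice had no called difference among the 26 probe sets in limma, where 0.131% of all probe sets were called; 4 of the 26 had an unadjusted p under 0.05. Clcf1 1437271_at was 7.62 ± 0.60 in knockout and 6.98 ± 0.20 in wild type MCAO arrays (SD, n = 7 each), a difference of 0.64 (SE 0.19, limma adjusted p = 0.143). Without knockout MCAO array 7 it was 0.80 (SE 0.16, limma adjusted p = 0.0311), a call that rests on leaving out that array. Il6 was 7.48 ± 1.99 in knockout and 8.43 ± 0.63 in wild type MCAO arrays (SD, n = 7 each). The difference was -0.95 (95% confidence interval -2.21 to 0.31, limma adjusted p = 0.42). Without knockout MCAO arrays 2 and 5 it was 0.07 (SE 0.39), a shift that follows from leaving out the lowest Il6 values of that group. Il6ra was lower in knockout arrays by point estimate on both probe sets, at -0.26 and -0.44, with adjusted p-values of 0.285 and 0.226.

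After sham surgery 1 of 26 probe sets differed between genotypes, where 4.67% of all probe sets were called, 2.1% as lower. This was Lifr 1454984_at, lower in knockout sham arrays by -0.49 (SE 0.13, limma adjusted p = 0.0405), with no overlap between the 3 and 3 arrays. The call was lost in 5 of the 6 fits without 1 sham array, all but the one without knockout sham array 1, with adjusted p-values up to 0.171. The difference between 3 prime and 5 prime actin control probe sets was 1.60 to 1.76 in knockout sham arrays and 0.86 to 1.01 in wild type sham arrays, with no overlap. With that measure as a covariate Lifr 1454984_at was at -0.47 (limma adjusted p = 0.181), and after repeated quantile normalization it was at -0.30 (limma adjusted p = 0.169). The part of RNA integrity in this difference was not tested further.

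A further Lifr probe set, 1450207_at, ran the other way after sham surgery, with 5.71, 6.03 and 6.18 in knockout sham arrays against 5.27, 5.74 and 5.12 in wild type sham arrays. Its difference was 0.60 (SE 0.21, limma adjusted p = 0.092). It was called with array weights (0.53, limma adjusted p = 0.0139) and with the replicate block (0.60, limma adjusted p = 0.0467). The block fit kept only arrays whose number occurred in every group, and those arrays without the block also gave a call (limma adjusted p = 0.0357). With the actin covariate 1450207_at was at 0.31 (limma adjusted p = 0.514). The Lifr difference thus has no single direction over its probe sets. In 4 probe sets every knockout sham array lay above every wild type sham array (20.1% of all probe sets did), and in 1, Lifr 1454984_at, every one lay below (19.1% of all probe sets). Of the 4, Il6 was at 0.60 (limma adjusted p = 0.726) and Lif 1421207_at at 0.49 (limma adjusted p = 0.535). The rest were Osm at 0.50 (limma adjusted p = 0.17) and Stat3 1424272_at at 0.26 (limma adjusted p = 0.3). None was called in the reported fit, which shares 1 spread over all groups. For Il6 the SD was 1.99 in knockout MCAO, 0.06 in knockout sham and 0.19 in wild type sham arrays. With only the arrays compared, Il6 was called at 0.60 (SE 0.12, limma adjusted p = 0.0234) and Osm at 0.50 (limma adjusted p = 0.0307). With array weights Osm was called at 0.49 (limma adjusted p = 0.0283). Calls over all 45037 probe sets rose too, to 12476 with array weights and 6052 with only the arrays compared, against 2105 in the reported fit. Nothing particular to these genes is read from the added calls. The Il6 sham values lie near the dim end.

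Arrays within a condition also let the members be compared with each other. Over the 14 MCAO arrays, each minus the mean of its genotype and each gene by its brightest probe set, 18 of 45 pairs of members had a Pearson correlation with a permutation p under 0.05 after Benjamini-Hochberg adjustment. Within knockout MCAO arrays 12 pairs did, and within wild type MCAO arrays none did by an exact permutation test. Knockout MCAO arrays 2, 5 and 7 lay below the other 4 in Il6, Lif, Clcf1, Il6st and Socs3, so no pooled correlation is given for pairs that include any of them. They were also the lowest of the knockout arrays in Osm and Stat3, by smaller gaps.

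For Osmr and Stat3, r was 0.757 over the 14 arrays (permutation p = 0.00175, adjusted p = 0.00606) and rho was 0.688 (permutation p = 0.00831, adjusted p = 0.0267). The r was 0.788 within knockout arrays (exact permutation p = 0.0401, adjusted p = 0.0902) and 0.880 within wild type arrays (exact permutation p = 0.00873, adjusted p = 0.181). Without the 2 arrays farthest from the median Osmr level it was 0.686 (permutation p = 0.0127). For Il6ra and Lifr, r was -0.637 over the 14 arrays (permutation p = 0.0149, adjusted p = 0.0394) and rho was -0.635 (permutation p = 0.0173, adjusted p = 0.0485). It was -0.832 within knockout arrays (exact permutation p = 0.025, adjusted p = 0.0703), -0.601 within wild type arrays (exact permutation p = 0.152, adjusted p = 0.381) and -0.729 without the 2 farthest arrays (permutation p = 0.00721). All points share the array normalization. Knockout MCAO arrays 2 and 5, the lowest of their group in both Osmr and Stat3, enter the pooled and the knockout r of that pair. Wild type MCAO array 4, low in Osmr (8.65, others 9.27 to 9.70), enters its pooled and wild type r. That array had an actin 3 prime minus 5 prime difference of 1.70, against 0.39 to 0.99 in the other wild type MCAO arrays. Its highest correlation with another array of its group was 0.982, against at least 0.992 for the others. The part of RNA integrity in these r was not tested.

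Among wild type MCAO arrays alone, Il6 and Stat3 had r = 0.832 and rho = 0.643 (n = 7, exact permutation p of r = 0.0234, adjusted p = 0.211). Il6 and Osm had r = -0.835 and rho = -0.857 (n = 7, exact permutation p of r = 0.0159, adjusted p = 0.181), where wild type MCAO array 4 had both the lowest Il6 signal (7.13) and the highest Osm signal (7.28). Stat3 and Socs3 had r = 0.0141 and rho = 0.179 (n = 7, exact permutation p of r = 0.973). Larger r were found for Il6 and Osmr (r = 0.938, rho = 0.75, exact permutation p of r = 0.0161, adjusted p = 0.181). Clcf1 and Stat3 had r = 0.887 and rho = 0.857 (exact permutation p of r = 0.00833, adjusted p = 0.181). The pairs printed are examples. Array 4, also the lowest of its group in Osmr, enters each of these r.

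**Figure D4:**
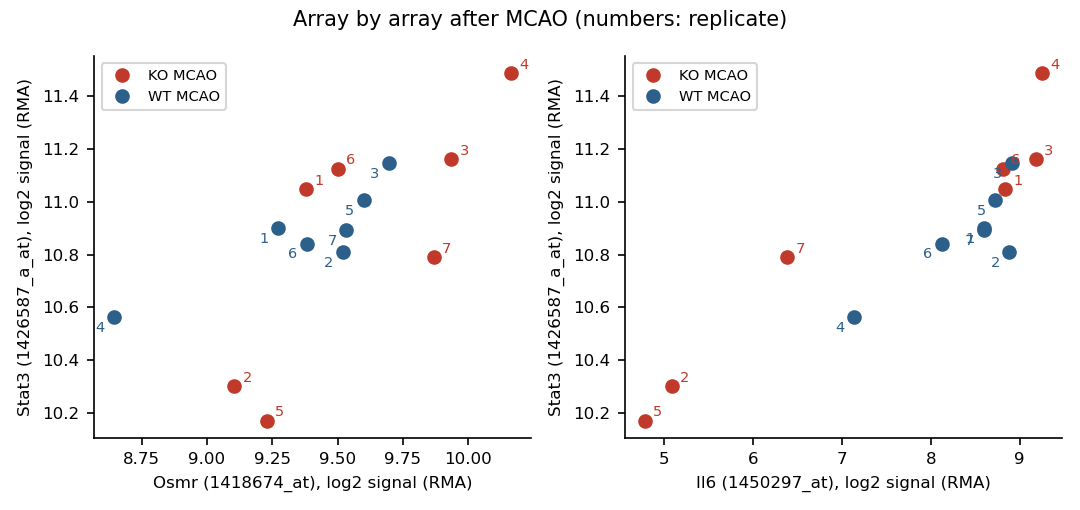
Log2 RMA signal of Stat3 (y axes) against Osmr (left) and Il6 (right) on the 14 MCAO arrays (points, numbered by replicate; knockout red, wild type blue). Knockout arrays 2, 5 and 7 lie apart from the other arrays in Il6 (4.79 to 6.39), and arrays 2 and 5 are also lowest in Stat3.

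The genes most like each of 4 members over the 14 MCAO arrays, again minus the genotype means, were sought among 19795 probe sets of other genes, and r is given as a description of these arrays. For Il6 and Socs3, in which knockout arrays 2, 5 and 7 stand apart, the r printed is that within the 7 wild type MCAO arrays, while the genes were picked over all 14. For Il6 they were Serpina3n (wild type r = 0.935), Plek (wild type r = 0.774) and Sox18 (wild type r = 0.693). For Osmr they were Ccdc47 (r = 0.958, wild type r = 0.930), Txnrd1 (r = 0.938, wild type r = 0.925) and Chl1 (r = 0.935, wild type r = 0.945). For Stat3 they were Aspscr1 (r = 0.957, wild type r = 0.878), Ifi27 (r = 0.951, wild type r = 0.878) and C3ar1 (r = 0.949, wild type r = 0.842). Knockout arrays 2 and 5, the lowest of their group in Osmr and Stat3, enter the r over 14 arrays. Wild type MCAO array 4, the lowest of its group in Osmr and Il6, enters the r over 14 arrays and the wild type r. For Socs3 they were Myo1c (wild type r = 0.876), Cd93 (wild type r = 0.639) and Trib1 (wild type r = 0.154).

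In naive brain 4 of 26 probe sets differed between knockout and wild type mice, 3 higher and 1 lower, all of ligand genes, where 20.1% of all probe sets were called, 8.02% as higher and 12.1% as lower. Wild type naive array 6 stood apart from all other naive arrays. Its correlation with the other wild type naive arrays was at most 0.825, its actin 3 prime minus 5 prime difference was 4.88 against 0.28 to 0.72 in the other 7, and its interquartile range was 2.63 against 3.22 to 3.60. Results are therefore given with and without it.

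The naive arrays also differed by genotype as a whole. Their median signals were 7.02 to 7.05 in knockout and 6.87 to 6.94 in wild type naive arrays, with no overlap. Whether both genotypes were normalized together is not given in the sources used here, so genotype and normalization cannot be told apart in the naive differences. Of 9 neutrophil markers 4 were lower and 1 was higher in knockout naive brain, where 9.04% of all genes were lower and 7.25% higher by their brightest probe set. Of 7 microglia markers 3 were higher and none was lower. The neutrophil mean ran from 5.81 to 6.06 in knockout and from 6.20 to 6.78 in wild type naive arrays, and the microglia mean from 8.86 to 9.08 in knockout and from 8.36 to 8.64 in wild type naive arrays. Of the 9 neutrophil markers only 1 was above the array median in each knockout naive array and 1 to 4 in wild type naive arrays. The endothelial and pericyte mean was also apart, at 8.76 to 8.91 in knockout and 8.36 to 8.74 in wild type naive arrays. So was the meningeal and fibroblast mean, at 9.23 to 9.27 against 8.89 to 9.17. The means of the other marker lists overlapped. The part of these cells in the naive differences was not tested.

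Il6 in knockout naive arrays ran from 3.73 to 3.99 with a median of 3.87, against 4.15 to 5.20 with a median of 4.23 in wild type naive arrays. The groups did not overlap, and all values lie near the dim end of the arrays, whose 5th percentile was 3.97 to 4.06 in knockout and 4.20 to 4.59 in wild type naive arrays. The difference was -0.55 (SE 0.14, limma adjusted p = 0.0107) and, without array 6, -0.44 (SE 0.08, limma adjusted p = 0.000528). After a repeated quantile normalization, which makes the distributions of all naive arrays equal, it was -0.25 (limma adjusted p = 0.129). With each array centred on its median it was -0.70 (limma adjusted p = 0.00101). Knockout naive arrays had the higher medians, so centring makes a lower knockout value lower still and does not test this call.

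Osm in knockout naive arrays ran from 7.34 to 7.68 with a median of 7.48, against 6.78 to 7.65 with a median of 6.92 in wild type naive arrays. The groups overlapped through array 6 alone, since the other 7 wild type arrays reached 7.12. The difference was 0.48 (SE 0.11, limma adjusted p = 0.00622) and, without array 6, 0.57 (SE 0.06, limma adjusted p = 8.26e-06). After the repeated quantile normalization it was 0.29 (limma adjusted p = 0.206). With median centring it stayed called, at 0.33 (limma adjusted p = 0.0269).

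Clcf1 was higher in knockout naive arrays on 2 probe sets. On 1437271_at they ran from 5.14 to 5.41 with a median of 5.24, against 4.67 to 5.26 with a median of 4.94 in wild type naive arrays, a difference of 0.30 (SE 0.08, limma adjusted p = 0.0149). On 1450262_at they ran from 6.22 to 6.74 with a median of 6.50, against 5.93 to 6.48 with a median of 6.12 in wild type naive arrays, a difference of 0.37 (SE 0.09, limma adjusted p = 0.00979). Without array 6 these were 0.31 (SE 0.08, limma adjusted p = 0.00449) and 0.37 (SE 0.09, limma adjusted p = 0.00395). The groups overlapped through wild type array 5 on the first and through arrays 5 and 8 on the second. When each array was centred on its median, the differences were 0.15 (limma adjusted p = 0.192) and 0.22 (limma adjusted p = 0.089). After repeated quantile normalization both stayed called, at 0.42 (limma adjusted p = 0.00292) and 0.29 (limma adjusted p = 0.0434). The remaining probe set, 1437270_a_at, was at -0.30 and, without array 6, at -0.12 (SE 0.05, limma adjusted p = 0.101), called in neither fit. With array weights it was called lower, at -0.16 (limma adjusted p = 0.0155), opposite to the other Clcf1 probe sets. In the naive arrays 1437270_a_at and 1437271_at were dim, at percentiles 3.2 and 19.3 of all probe sets.

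Without wild type naive array 6, 17919 of all 45037 probe sets were called, against 9046 with it, so calls rose over all probe sets. Of the 26 probe sets 7 were called without it. The 3 added ones were Stat3 1459961_a_at at 0.40 (SE 0.07, limma adjusted p = 0.000623), Stat3 1460700_at at 0.23 (SE 0.05, limma adjusted p = 0.00162) and Lif 1450160_at at -0.27 (SE 0.09, limma adjusted p = 0.0308). With array 6 in the fit these were 0.20, 0.35 and -0.35, and none was called. The brightest Stat3 probe set, 1426587_a_at, was at 0.52 with array 6, which read 6.56 there against 9.24 to 9.64 in the other 7, and at 0.16 without it. In the reported fit no naive probe set of Il6ra, Lifr, Osmr, Il6st or Socs3 was called; with median centring Osmr 1459217_at was called at -0.28 (limma adjusted p = 0.0313) and with repeated quantile normalization Lifr 1425107_a_at was called at 0.29 (limma adjusted p = 0.0462). With array weights Socs3 1416576_at was called at 0.16 (limma adjusted p = 0.0218) and Lifr 1454984_at at -0.19 (limma adjusted p = 0.0247).

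**Figure D5:**
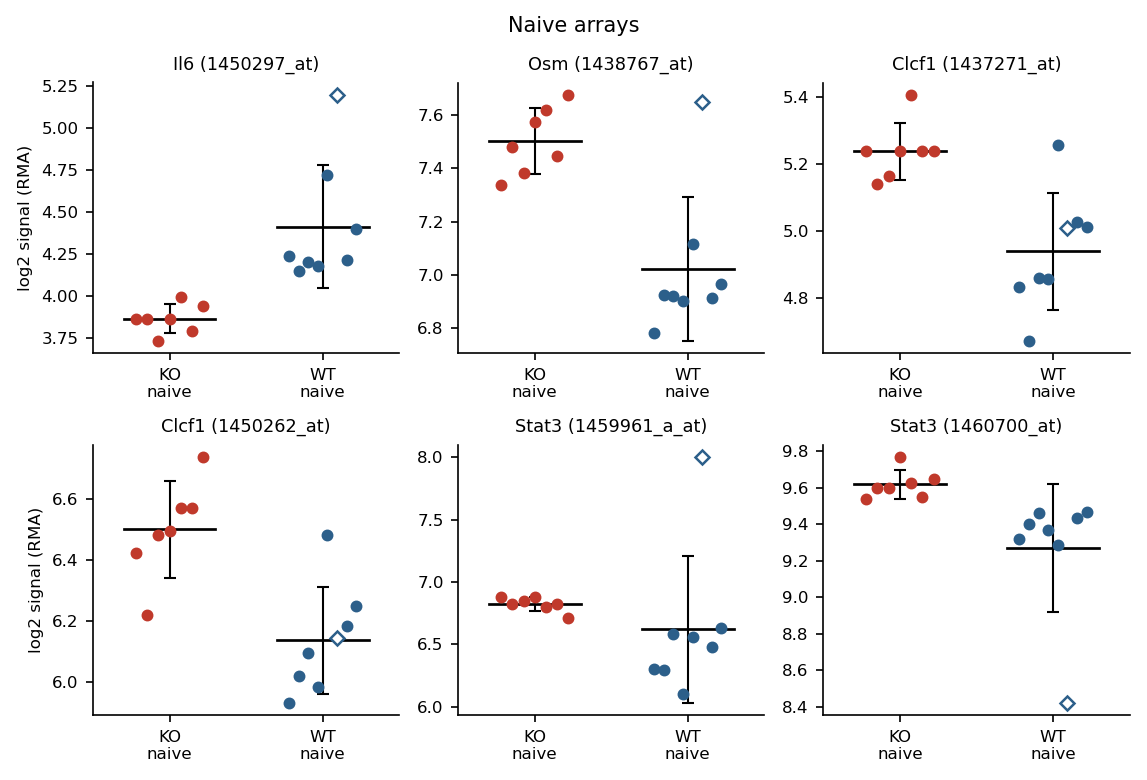
Log2 RMA signal (y axis) of 6 probe sets on each naive array (points) in knockout (n = 7) and wild type (n = 8) mice (x axis), with the mean as a line and the SD as a bar; the open diamond is wild type array 6. Array 6 lies far from the other 7 wild type arrays in Osm (7.65) and both Stat3 panels (8.00 and 8.42), and Il6 is lower in every knockout array than in every wild type array.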

How the data were processed

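Per the submitters' processing notes the arrays were summarised by RMA, whose version is not given in the sources used here, and the deposited values are log2 signals on 35 arrays; naive and surgery arrays were normalized apart, per the labels. Of 45101 probe sets 64 controls were left out. Gene names come from the platform annotation: 34945 probe sets had 1 symbol, 932 several and 9160 none listed. No value is given for the receptor gene that the knockout targets.

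Using limma 3.58.1 under R 4.3.3, linear models with moderated errors were fitted to the 20 surgery arrays and, apart, to the 15 naive arrays, over all 45037 probe sets. Calls required a p under 0.05 after Benjamini-Hochberg adjustment over all of them. The steps were tested on simulated data. Correlations used two-sided permutation tests (100000 resamples over 14 arrays; exact within a genotype; Python 3.11.15, numpy 2.4.6). With 3 sham arrays per genotype the number of arrays limits precision.

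The members and all gene lists were chosen with earlier results of these data known. Every member probe set is accounted for. Named in full are the called ones and each gene's brightest; of other lists, up to 4 genes with the smallest p in each MCAO comparison could be named; for 4 members, the 3 genes most like them. Lists were counted by each gene's brightest probe set over the surgery arrays. Listed genes without a probe set of that sole symbol were not analysed here.

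Replicate numbers were checked for pairing by the correlation of deviations from group means between same-numbered arrays of different groups, which ran from -0.21 to 0.47; the numbers were not taken to pair the arrays. Alternatives comprised 1 probe set per gene, an intensity trend with robust prior, leaving out dim probe sets, median centring, repeated quantile normalization, array weights, an actin covariate, only the arrays compared, a replicate block, a stricter threshold (0.01) and leaving out each array. Block fits kept only arrays whose replicate number occurred in every group of the fit. Unblocked fits to those arrays, averaging of close array pairs and leaving out knockout MCAO arrays 2 and 5 were added after the data were seen.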

Additional observations from a re-analysis of the deposited data

Results flagged for a closer look

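In groups of 7 or 8 arrays, the highest or lowest array of a member probe set was set against the others by Dixon's criterion at 95%, which chance alone passes in about 1 of 20 groups. Of 104 such groups 20 passed.

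Wild type naive array 6 was the array in 13 of the 20. It was high in Osm (7.65, others 6.78 to 7.12), Clcf1 1437270_a_at (5.47, others 3.80 to 4.20), Il6ra 1452416_at (7.14, others 5.77 to 6.13), Lifr 1454984_at (11.05, others 9.61 to 10.10), Osmr 1418674_at (8.82, others 5.38 to 6.58) and Osmr 1459217_at (5.35, others 4.62 to 4.84). It was also high in Il6st 1437303_at (10.82, others 8.90 to 9.22), Stat3 1459961_a_at (8.00, others 6.10 to 6.63), Socs3 1455899_x_at (8.25, others 4.99 to 6.08) and Socs3 1456212_x_at (6.08, others 5.27 to 5.64). It was low in Il6st 1452843_at (8.48, others 9.24 to 9.70), Stat3 1426587_a_at (6.56, others 9.24 to 9.64) and Stat3 1460700_at (8.42, others 9.29 to 9.47). Probe sets of 1 gene thus pointed in opposite directions on this array for Il6st and Stat3. The same array had the highest actin (4.88) and Gapdh (3.51) 3 prime minus 5 prime differences; their part in these values was not tested.

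The other 7 were spread over 6 arrays. Wild type MCAO array 4 was low in Osmr on 1418674_at (8.65, others 9.27 to 9.70) and on 1418675_at (6.64, others 7.36 to 7.69). Wild type MCAO array 7 was high in Lifr 1425107_a_at (4.38, others 4.13 to 4.23). Knockout MCAO array 4 was high in Il6st 1437303_at (10.70, others 9.16 to 9.63), and knockout MCAO array 5 in Osmr 1459217_at (3.95, others 3.79 to 3.86). Knockout naive array 5 was high in Clcf1 1437271_at (5.41, others 5.14 to 5.24), and wild type naive array 7 was low in Osmr 1418675_at (5.40, others 5.68 to 5.90).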

How the results depend on the processing

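The count of 15 member probe sets called after MCAO in knockout mice was 15 or 16 in every fit to probe sets, and the count of 13 in wild type mice was 12 to 16; with 1 probe set per gene 8 and 7 genes were called. Without 1 array the counts were 15 to 16 in knockout and 12 to 14 in wild type mice. No called value of a member changed sign in any fit. The interaction had 1 call with median centring and 1 with array weights, both Lifr 1454984_at, and 0 to 2 without 1 array. Over all probe sets 3053 passed with median centring and 6638 with array weights, against 3336 in the reported fit. Knockout against wild type after MCAO had 0 calls in every fit with all arrays and 0 to 1 without 1 array.

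The single genotype call after sham surgery became 0 with repeated quantile normalization, with the actin covariate and at the stricter threshold, 4 with array weights, 3 with only the arrays compared, 2 with the replicate block and 2 in the same arrays without that block, and 0 to 1 without 1 array. Over all 45037 probe sets, sham genotype calls were 12476 with array weights and 6052 with only the arrays compared. They were 3733 with the replicate block and 5874 in the same arrays without it, against 2105 in the reported fit. Calls thus rose over all probe sets in these fits. The 4 naive calls became 10 with array weights, 8 with the actin covariate, 2 at the stricter threshold and 4 to 7 without 1 array. The replicate block gave 15 calls in knockout and 14 in wild type mice after MCAO, 0 in the interaction, 0 between genotypes after MCAO and 4 in naive brain. The pairs of members correlated after MCAO were 18 over both genotypes and 0 within wild type arrays. The causes of these changes were not tested.

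Over all probe sets, median centring moved the naive median difference to -0.12, and the share of naive calls that were higher was 10.9% with it, 82.6% without dim probe sets and 39.9% in the reported fit; naive calls were 17919 without wild type array 6, 19879 with array weights, 17439 with the actin covariate and 5046 after repeated quantile normalization, against 9046 in the reported fit. Interaction calls over all probe sets were 3336 in the reported fit, 628 after repeated quantile normalization, 57 with the actin covariate and 0 without knockout sham array 3; sham genotype calls were 2105, 621, 3 and 5 in the same fits. Averaging closely correlated MCAO arrays of a group gave 16 calls in knockout and 12 in wild type mice.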
